A study of Mus musculus with 15 samples.

Results

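A set of 10 genes of hepatic fatty acid synthesis was examined across liver development and Stab1 deficiency. The 10 genes were taken by name as members of this pathway, with earlier results of these data known, and are the enzymes Acly, Me1, Acaca, Fasn, Elovl6 and Scd1, the transcription factors Srebf1 and Mlxipl, the lipogenic cofactor Thrsp and the lipid droplet protein Pnpla3. Each has 1 row among the 19464 rows of the table. RNA came from liver tissue in 4 wildtype and 3 Stab1-/- samples at E17.5, a late embryonic age, and in 4 wildtype and 4 Stab1-/- samples at 2 weeks of age. All 15 libraries are from animals of a mixed C57BL/6N;129SvJ strain background, and the knockout of Stab1, which encodes the scavenger receptor Clever-1, is not limited to 1 cell type. The study compared the genotypes within each age, and the 2 ages were compared here as well. The labels list separate samples and do not say which shared a litter or a day, so the p-values measure only the spread between these samples.

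De novo lipogenesis turns surplus carbohydrate into fatty acids in the cytosol of the hepatocyte. ATP citrate lyase (Acly) splits citrate into acetyl-CoA, malic enzyme (Me1) supplies NADPH, acetyl-CoA carboxylase 1 (Acaca) makes malonyl-CoA, and fatty acid synthase (Fasn) assembles palmitate, which Elovl6 elongates and Scd1 desaturates. Transcription of these genes is driven by SREBP-1c, a product of Srebf1 that answers to insulin, and by ChREBP, the product of Mlxipl, which answers to glucose metabolites. Suckling pups take fat-rich milk, whereas the fetus is supplied with glucose through the placenta.

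RefSeq promoter windows on GRCm38.p6, from 250 bases before to 50 bases after a transcription start, were found for 9 of the 10 genes, in 13 windows. 4 of these are printed, since they belong to the gene with the largest fall with age among the 10 (Elovl6), the one with the largest rise (Thrsp), the synthase itself (Fasn) and a regulator (Mlxipl). Capitals mark exact matches on either strand to TCACNCCAC (the core of a sterol regulatory element), CACGTG (an E-box), CCAAT (the NF-Y box) and GGGCGG (the Sp1 box). The windows are chr3:129532136-129532435 on the plus strand for Elovl6, chr11:120824498-120824797 on the minus strand for Fasn, chr5:135089640-135089939 on the plus strand for the first Mlxipl window, and chr7:97417501-97417800 on the minus strand for Thrsp.
Elovl6: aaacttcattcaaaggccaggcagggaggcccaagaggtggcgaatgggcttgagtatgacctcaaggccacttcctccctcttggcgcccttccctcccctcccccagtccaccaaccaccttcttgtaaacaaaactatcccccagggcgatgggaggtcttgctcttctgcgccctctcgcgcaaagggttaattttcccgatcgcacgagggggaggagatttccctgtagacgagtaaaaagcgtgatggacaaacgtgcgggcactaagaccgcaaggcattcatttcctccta
Fasn: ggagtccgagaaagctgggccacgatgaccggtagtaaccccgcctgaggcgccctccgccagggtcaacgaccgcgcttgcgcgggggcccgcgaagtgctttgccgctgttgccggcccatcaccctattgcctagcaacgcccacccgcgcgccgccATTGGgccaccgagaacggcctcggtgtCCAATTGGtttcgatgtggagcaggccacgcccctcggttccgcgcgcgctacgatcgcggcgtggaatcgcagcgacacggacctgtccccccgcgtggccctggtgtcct
Mlxipl: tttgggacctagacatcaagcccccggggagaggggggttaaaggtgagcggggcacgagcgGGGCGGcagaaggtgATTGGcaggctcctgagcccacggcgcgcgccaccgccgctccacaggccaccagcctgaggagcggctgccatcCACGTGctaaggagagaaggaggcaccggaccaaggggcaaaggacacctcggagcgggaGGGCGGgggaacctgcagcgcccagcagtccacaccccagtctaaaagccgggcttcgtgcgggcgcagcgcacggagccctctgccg
Thrsp: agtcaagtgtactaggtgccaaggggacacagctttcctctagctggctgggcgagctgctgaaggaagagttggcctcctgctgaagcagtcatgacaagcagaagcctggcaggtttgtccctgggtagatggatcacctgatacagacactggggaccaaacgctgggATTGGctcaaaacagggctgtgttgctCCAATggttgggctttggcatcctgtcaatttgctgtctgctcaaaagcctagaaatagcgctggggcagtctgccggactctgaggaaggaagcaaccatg
The Fasn window holds 3 CCAAT matches, of which 2 overlap, the Thrsp window holds 2, and the Elovl6 window holds none of the 4 motifs. Among the 9 genes with a window, 7 had CCAAT in a window, 5 had GGGCGG, 1 had CACGTG and 1 had TCACNCCAC, the last in a second Mlxipl window. By window, 8 of the 13 held CCAAT, 6 held GGGCGG, 1 held CACGTG and 1 held TCACNCCAC. Of all 32851 RefSeq mouse windows of this length, 37.4% hold CCAAT, 35.7% hold GGGCGG, 7.15% hold CACGTG and 1.24% hold TCACNCCAC. A match describes the letters in the window and does not show binding, and an absent match says nothing about the factor. Scd1 is named only.

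Each library held between 9.66 and 10.96 M (mega) reads on genes. Stab1 was at 17.2 ± 3.17 RPKM (SD, n = 4) in wildtype and 4.37 ± 0.817 RPKM (n = 3) in Stab1-/- livers at E17.5, and at 9.29 ± 1.54 and 1.09 ± 0.31 RPKM (n = 4 each) at 2 weeks. RPKM scales reads by gene length and by the reads of the library, so levels of different genes can be compared. The 8 hepatocyte markers summed to 50256 to 64155 RPKM at E17.5, and at 2 weeks to 74653 to 94836 RPKM in wildtype and 58776 to 74642 RPKM in Stab1-/- livers. The 8 erythroid markers summed to 6724 to 9345 RPKM at E17.5 and to 84.5 to 221 RPKM at 2 weeks, and the 8 proliferation markers to 407 to 586 and 20.7 to 51.8 RPKM. In bulk tissue, fewer cells of a type and less RNA per cell cannot be told apart. Macrophage markers summed to 287 to 500 RPKM, sinusoidal endothelial markers to 113 to 195 RPKM and stellate markers to 116 to 306 RPKM, over 8 genes each. Of 8 adipocyte markers, 7 were in the table and summed to 220 to 440 RPKM. Adipoq, Plin1, Cfd and Retn were at or under the detection floor of 3 reads in every library, and the other 3 (Lpl, Fabp4 and Lipe) were tested. One library, replicate 2 of wildtype E17.5, had a summed 2050 RPKM for 8 markers of exocrine pancreas and intestine, against 16.5 to 209 RPKM in the other libraries. Of these 8, 6 were tested between genotypes at E17.5, with a median log2 fold change of -3.08 and 0 called. The intestinal marker Guca2a was at or under 3 reads in every wildtype E17.5 library, but not in every Stab1-/- E17.5 library. The study lists Guca2a, Vil1 and Fabp2 as upregulated in Stab1-/- livers at E17.5. The part of such tissue in the values of the 10 genes was not tested.

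The order of the 10 genes by level changed in part between the ages. In wildtype livers at E17.5 the enzymes Acly (76.9 ± 7.34 RPKM, SD, n = 4) and Scd1 (67.0 ± 9.76) led, followed by Srebf1 (40.3 ± 1.4), Elovl6 (27.5 ± 3.03), Fasn (27.4 ± 3.81), Mlxipl (14.1 ± 3.12), Acaca (9.36 ± 0.988), Me1 (4.24 ± 0.456), Pnpla3 (3.97 ± 0.478) and Thrsp (0.999 ± 0.202). The ranges of Acly and Scd1, of Elovl6 and Fasn, and of Me1 and Pnpla3 overlapped, and the other neighbours in this order did not. At 2 weeks both transcription factors stood at the top, Srebf1 at 84.1 ± 20.5 RPKM and Mlxipl at 46.7 ± 10.2 RPKM, with overlapping ranges. Acly was next at 22.4 ± 6.22 RPKM, apart from its neighbours, and Scd1 (9.21 ± 3.38), Me1 (8.91 ± 0.077), Acaca (7.94 ± 1.01), Fasn (7.58 ± 2.55) and Thrsp (6.2 ± 4.66) formed a run of overlapping ranges. Pnpla3 (1.16 ± 0.864) and Elovl6 (0.458 ± 0.19) came last, and each overlapped its neighbour above. In Stab1-/- livers the first 2 genes at 2 weeks were again Srebf1 (78.6 ± 6.66 RPKM, n = 4) and Mlxipl (49.8 ± 7.32), and the first at E17.5 was again Acly (62.9 ± 7.63, n = 3).

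**Figure D1:**
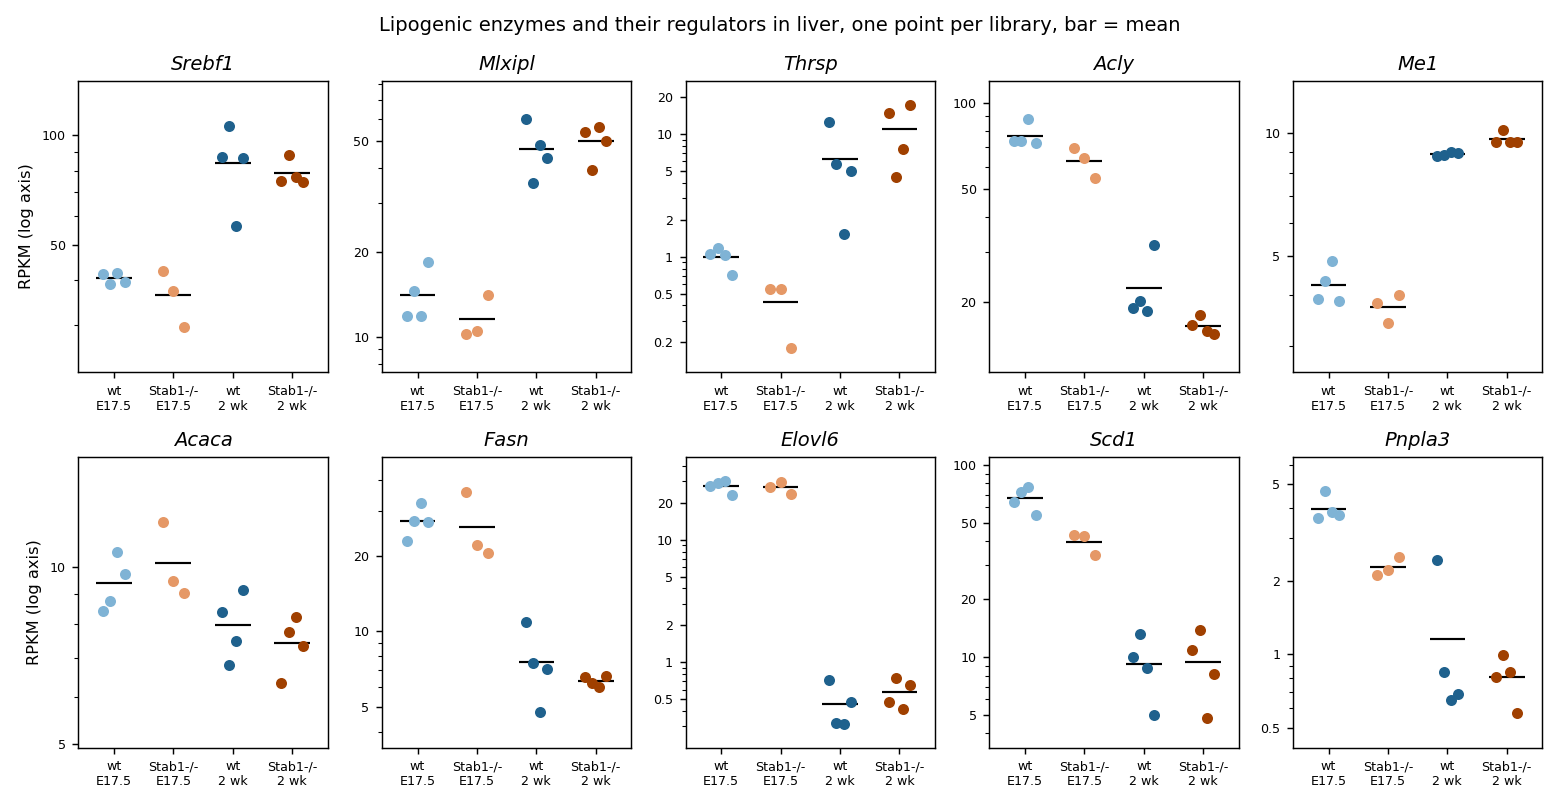
RPKM of the 10 genes on a log axis, with 1 point per library and a bar at the mean of wildtype (wt) and Stab1-/- livers at E17.5 and 2 weeks (2 wk). Srebf1, Mlxipl, Thrsp and Me1 lie higher at 2 weeks, Acly, Fasn, Elovl6, Scd1 and Pnpla3 lie lower, and Acaca differs least.

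Between E17.5 and 2 weeks, both transcription factors, Thrsp and Me1 rose, while Acly, Fasn, Elovl6, Scd1 and Pnpla3 fell, in each genotype. By edgeR's quasi-likelihood test on the counts with Benjamini-Hochberg adjustment, 4 of the 10 genes were called higher and 5 lower in wildtype livers, where a gene is called at an adjusted p under 0.05. Among all 13369 genes tested, 34.9% were called higher and 37% lower in that comparison. Stab1-/- livers gave the same counts, against 35.7% and 36.8% of 13433 genes. The median log2 fold change of the 10 genes was -0.64 in wildtype and -0.75 in Stab1-/- livers, against -0.01 over all genes in each. The share called over the table is large, so the number of calls alone sets the 10 genes little apart. In RPKM, the ages did not overlap for 9 of the 10 genes in wildtype livers (69.1% of all genes tested) and for all 10 in Stab1-/- livers (72% of all genes tested). Scaling by library totals in place of TMM moved the median of all genes by -0.38 in wildtype and -0.24 in Stab1-/- livers on the log2 scale, and turned the higher and lower calls from 4667 and 4948 to 3104 and 6834 in wildtype livers and from 4791 and 4945 to 3758 and 5944 in Stab1-/- livers. The 9 calls kept their direction under that scaling in both genotypes.

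**Figure D2:**
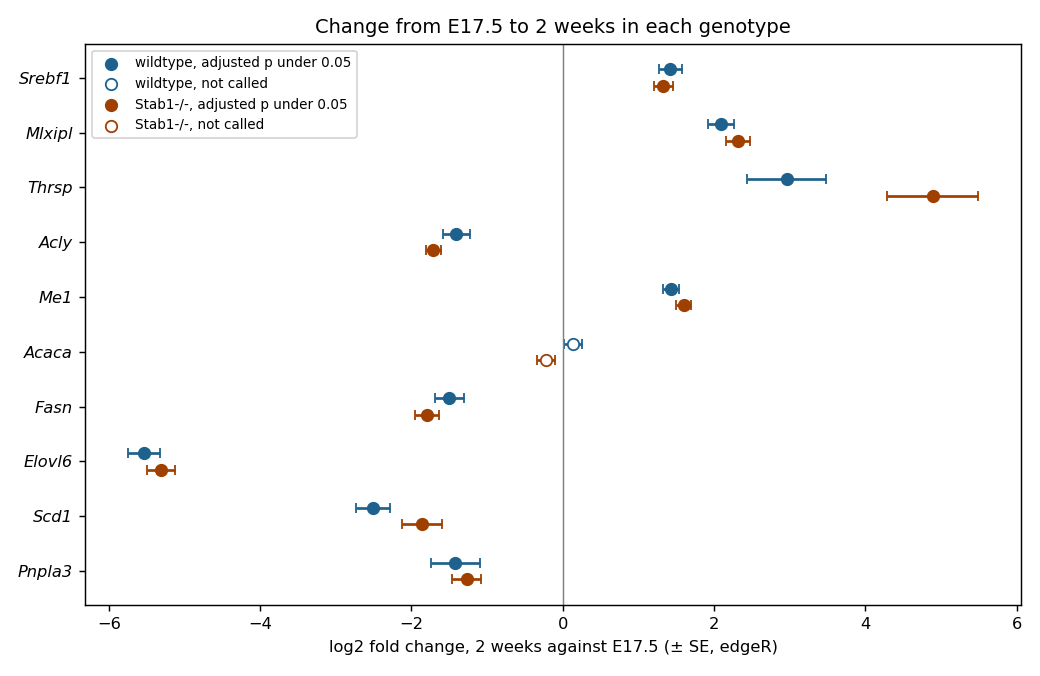
Log2 fold change of each gene from E17.5 to 2 weeks (horizontal axis, ± SE from edgeR) in wildtype and Stab1-/- livers. Filled points are called, open points are not, and 4 genes lie to the right, 5 to the left, and Acaca lies near 0 in both genotypes.

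The transcription factors rose together. Srebf1 was at 41.4, 39.0, 41.7 and 39.4 RPKM in the 4 wildtype E17.5 libraries and at 87.1, 106, 56.4 and 86.9 RPKM at 2 weeks, a log2 fold change of 1.42 (SE 0.15, edgeR adjusted p = 4.18e-06). Every 2-week value lay above every E17.5 value. Mlxipl was at 11.8, 14.5, 11.8 and 18.4 RPKM at E17.5 and at 59.9, 35.5, 48.2 and 43.4 RPKM at 2 weeks, a log2 fold change of 2.09 (SE 0.17, edgeR adjusted p = 3.62e-07). In Stab1-/- livers the log2 fold changes were 1.33 (SE 0.13) for Srebf1 and 2.32 (SE 0.16) for Mlxipl. The RefSeq table lists 3 start windows for Srebf1, and the gene counts do not separate the transcripts SREBP-1a and SREBP-1c.

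Thrsp, which encodes the small lipogenic cofactor Spot14, rose most of the 10. It had 12, 13, 12 and 8 reads in the wildtype E17.5 libraries and 139, 59, 17 and 56 reads at 2 weeks, or 1.06, 1.18, 1.04 and 0.711 RPKM against 12.6, 5.66, 1.52 and 4.99 RPKM. The log2 fold change was 2.96 (SE 0.52, edgeR adjusted p = 0.000242). In Stab1-/- livers it went from 6, 6 and 2 reads at E17.5 to 153, 50, 76 and 176 reads at 2 weeks, a log2 fold change of 4.89 (SE 0.6, edgeR adjusted p = 2.29e-05). One E17.5 library was thus under the floor of 3 reads. The spread at 2 weeks was wide, with a highest value 8.3 times the lowest in wildtype and 3.82 times in Stab1-/- livers.

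Of the genes that supply precursors, Me1 rose and Acly fell. Me1 was at 3.9, 4.33, 4.84 and 3.87 RPKM in wildtype E17.5 livers and at 8.82, 8.86, 8.98 and 8.97 RPKM at 2 weeks, a log2 fold change of 1.43 (SE 0.1, edgeR adjusted p = 1.1e-07). It was the steadiest of the 10 at 2 weeks, with a coefficient of variation of 0.865% in wildtype livers. Acly was at 73.8, 73.7, 87.9 and 72.3 RPKM at E17.5 and at 19.1, 20.2, 18.6 and 31.7 RPKM at 2 weeks, a log2 fold change of -1.41 (SE 0.18, edgeR adjusted p = 1.46e-05). The corresponding log2 fold changes in Stab1-/- livers were 1.60 (SE 0.1) for Me1 and -1.71 (SE 0.1) for Acly.

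Acaca and Fasn, which act in sequence, moved apart. Acaca was at 8.42, 8.73, 10.6 and 9.7 RPKM in wildtype E17.5 livers and at 8.36, 6.82, 7.48 and 9.12 RPKM at 2 weeks, and these ranges overlapped. Its log2 fold change was 0.13 (SE 0.12, edgeR adjusted p = 0.355) in wildtype livers, where it became -0.24 with library totals, and -0.22 (SE 0.12, adjusted p = 0.117) in Stab1-/- livers, where it was called lower with library totals at -0.45. Fasn went from 22.8, 27.4, 32.2 and 27.1 RPKM to 10.9, 7.52, 4.77 and 7.07 RPKM in wildtype livers, with no overlap. The log2 fold change of Fasn was -1.50 (SE 0.19, edgeR adjusted p = 1.91e-05) in wildtype and -1.80 (SE 0.16, adjusted p = 1.66e-06) in Stab1-/- livers.

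Elovl6, the elongase that takes palmitate to stearate, fell most. It was at 27.4, 29.1, 30.2 and 23.3 RPKM in wildtype E17.5 livers and at 0.722, 0.322, 0.316 and 0.473 RPKM at 2 weeks, that is 1483 to 1968 reads against 19 to 45 reads. The log2 fold change was -5.54 (SE 0.21, edgeR adjusted p = 3.88e-10), a 46.5-fold fall, and -5.31 (SE 0.19, adjusted p = 1.85e-09) in Stab1-/- livers. Among 13433 genes in Stab1-/- livers, Elovl6 was number 169 from the low end of the log2 fold changes. Scd1, the delta-9 desaturase, went from 63.7, 72.5, 76.8 and 54.8 RPKM to 9.94, 13.2, 8.75 and 4.99 RPKM in wildtype livers. Its log2 fold change was -2.51 (SE 0.23, edgeR adjusted p = 7.62e-07), and -1.86 (SE 0.26, adjusted p = 7.18e-05) in Stab1-/- livers. Pnpla3, a lipid droplet protein and a known target of SREBP-1c, went from 3.62, 4.67, 3.85 and 3.74 RPKM to 2.45, 0.846, 0.648 and 0.686 RPKM, a log2 fold change of -1.42 (SE 0.32, edgeR adjusted p = 0.00166). Its highest 2-week value, in replicate 1, still lay under the lowest E17.5 value. The erythroid and proliferation markers fell over the same interval (8 of 8 called lower in each list and genotype), and their part in the falls of the 5 genes was not tested. The hepatocyte markers rose, with 7 of 8 called higher in wildtype and 6 of 8 in Stab1-/- livers and median log2 fold changes of 1.53 and 1.23, and their part in the rises of Srebf1, Mlxipl, Thrsp and Me1 was not tested.

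Close relatives of 3 of the genes were followed in the same libraries, since a ratio of RPKM within a library does not depend on its total. Scd2, a desaturase that is prominent in fetal tissues, was at 217 ± 21.3 RPKM (SD, n = 4) in wildtype E17.5 livers and at 4.28 ± 0.509 RPKM at 2 weeks, a log2 fold change of -5.30 (SE 0.14, edgeR adjusted p = 4.95e-11). The Scd1 to Scd2 ratio was therefore below 1 in every E17.5 library (0.156 to 0.353) and above 1 in every 2-week library (1.01 to 4.2). Srebf1 stood at 1.14 to 1.65 times Srebf2, the gene of the sterol-directed SREBP-2, at E17.5 and at 6.1 to 10.6 times at 2 weeks. Acaca stood at 2.87 to 10.3 times Acacb, the mitochondrial carboxylase that restrains fatty acid oxidation, at E17.5 and at 17.2 to 51.9 times at 2 weeks. In each of the 3 ratios and both genotypes the ages did not overlap, with two-sided exact permutation p = 0.0286 in wildtype and 0.0571 in Stab1-/- livers, the smallest these sample sizes allow. All of these exact permutation tests gave p = 0.098 after Benjamini-Hochberg adjustment over 12 tests. At E17.5 the genotypes did not overlap in the Scd1 to Scd2 ratio (0.156 to 0.234 in Stab1-/-, 0.264 to 0.353 in wildtype livers). The exact permutation p was 0.0571, the smallest that 3 against 4 libraries allow, and 0.098 after adjustment. The other genotype comparisons of a ratio had an exact permutation p between 0.114 and 0.8. Reads of Scd1 and Scd2 were counted only where uniquely mapped, so stretches that the paralogs share add to neither.

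**Figure D3:**
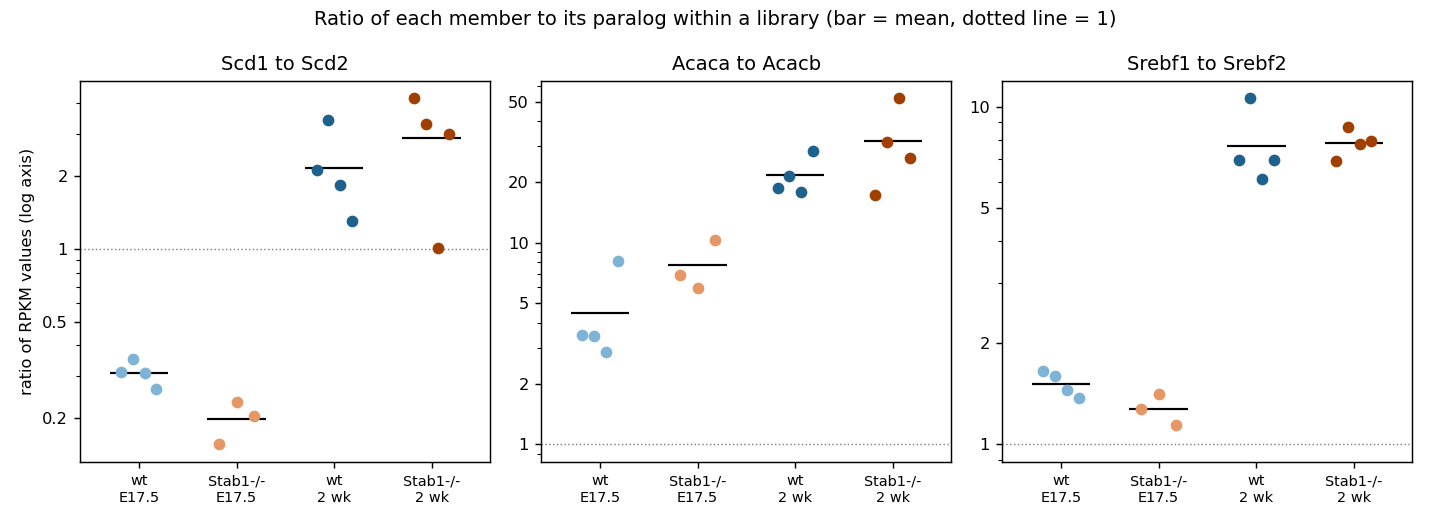
Ratio of RPKM within a library (log axis) for Scd1 to Scd2, Acaca to Acacb and Srebf1 to Srebf2, with 1 point per library, a bar at the group mean and a dotted line at a ratio of 1, for wildtype (wt) and Stab1-/- livers at E17.5 and 2 weeks (2 wk). The 2-week libraries lie above the E17.5 libraries in each panel, and the Scd1 to Scd2 ratio crosses 1.

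A total of 65 further genes of the pathway were grouped in 6 lists, of which 60 were tested in each comparison of 2 groups. In wildtype livers 30 were called higher and 16 lower at 2 weeks, with a median log2 fold change of 0.25, against a median of -0.01 over all genes tested. In Stab1-/- livers 29 were called higher and 19 lower, with a median of 0.23. Of all genes tested, 34.9% were called higher and 37% lower in wildtype livers and 35.7% and 36.8% in Stab1-/- livers. Of the 18 other regulators, 10 were called higher and 4 lower in each genotype. Insig2, which holds SREBP in the endoplasmic reticulum, rose by a log2 fold change of 3.99 (SE 0.21, edgeR adjusted p = 5.89e-09) in wildtype livers. Its relative Insig1, itself a target of nuclear SREBP, fell from 123 ± 25.3 to 22.9 ± 4.76 RPKM, a log2 fold change of -2.07 (SE 0.17, edgeR adjusted p = 3.22e-07). The AMPK subunits also diverged, with Prkaa2 higher at 3.48 (SE 0.2) and Prkaa1 lower at -1.01 (SE 0.1), both log2 fold changes in wildtype livers. Srebf2 fell by a log2 fold change of -1.28 (SE 0.09, edgeR adjusted p = 3.86e-07) in Stab1-/- livers.

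Genes of carbohydrate entry mostly rose, with 4 of 6 called higher and 1 lower in each genotype. Over all genes tested, 34.9% were called higher and 37% lower in wildtype livers, and 35.7% and 36.8% in Stab1-/- livers. Khk, which phosphorylates fructose, rose from 27.1 ± 3.11 to 232 ± 15 RPKM (n = 4 each) in wildtype livers, a log2 fold change of 3.46 (SE 0.12, edgeR adjusted p = 1.81e-10). Pklr, a pyruvate kinase gene whose liver form is a classical ChREBP target, fell from 89.0 ± 10.2 to 36.4 ± 10.2 RPKM. Its log2 fold change was -0.92 in wildtype livers (SE 0.18, edgeR adjusted p = 0.000614). Among genes of acetyl-CoA and NADPH supply, 3 of 10 were called higher and 5 lower in wildtype livers, and 3 and 6 in Stab1-/- livers. The pentose phosphate enzymes G6pdx and Tkt led the falls, with log2 fold changes of -2.40 (SE 0.13) and -1.93 (SE 0.13) in wildtype livers. All 8 erythroid and all 8 proliferation markers were also called lower in wildtype livers. The part of these markers in the falls of Pklr, G6pdx and Tkt was not tested. Cytosolic malate dehydrogenase Mdh1, which feeds the malic enzyme step, rose by 1.19 (SE 0.11), and the mitochondrial citrate carrier Slc25a1 by 0.64 (SE 0.11).

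Elovl5 and Elovl2, which lengthen polyunsaturated chains, rose by 3.95 (SE 0.15) and 2.94 (SE 0.11) in wildtype livers on the log2 scale, while Scd2 and Acacb fell by 5.30 and 2.34. Of the 10 genes tested in the list of other carboxylase, elongation and desaturation genes, 5 were called higher and 3 lower in wildtype livers, and 5 and 4 in Stab1-/- livers. In glycerolipid synthesis, Agpat2 (1.91, SE 0.12) and Dgat2 (1.46, SE 0.14) rose, and Gpam (-1.42, SE 0.15), the mitochondrial acyltransferase of the first step, and Acsl3 (-0.75, SE 0.12) fell in wildtype livers, all as log2 fold changes. Counts in that list were 4 higher and 3 lower of 10 tested in wildtype livers and 2 and 4 in Stab1-/- livers. The wildtype counts lie near the shares over all genes tested, 34.9% higher and 37% lower. Those shares were 35.7% and 36.8% in Stab1-/- livers. Lipid droplet genes were called higher in 4 of 6 tested in wildtype and 5 of 6 in Stab1-/- livers, and none was called lower by edgeR at an adjusted p under 0.05. Pnpla2, the main triglyceride lipase, rose by 1.79 (SE 0.16) and Cideb by 1.65 (SE 0.11) in wildtype livers. Of the 3 adipocyte markers tested, 2 were also called higher in wildtype and 3 in Stab1-/- livers (medians 0.55 and 0.95), and their part in the lipid droplet values was not tested.

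**Figure D4:**
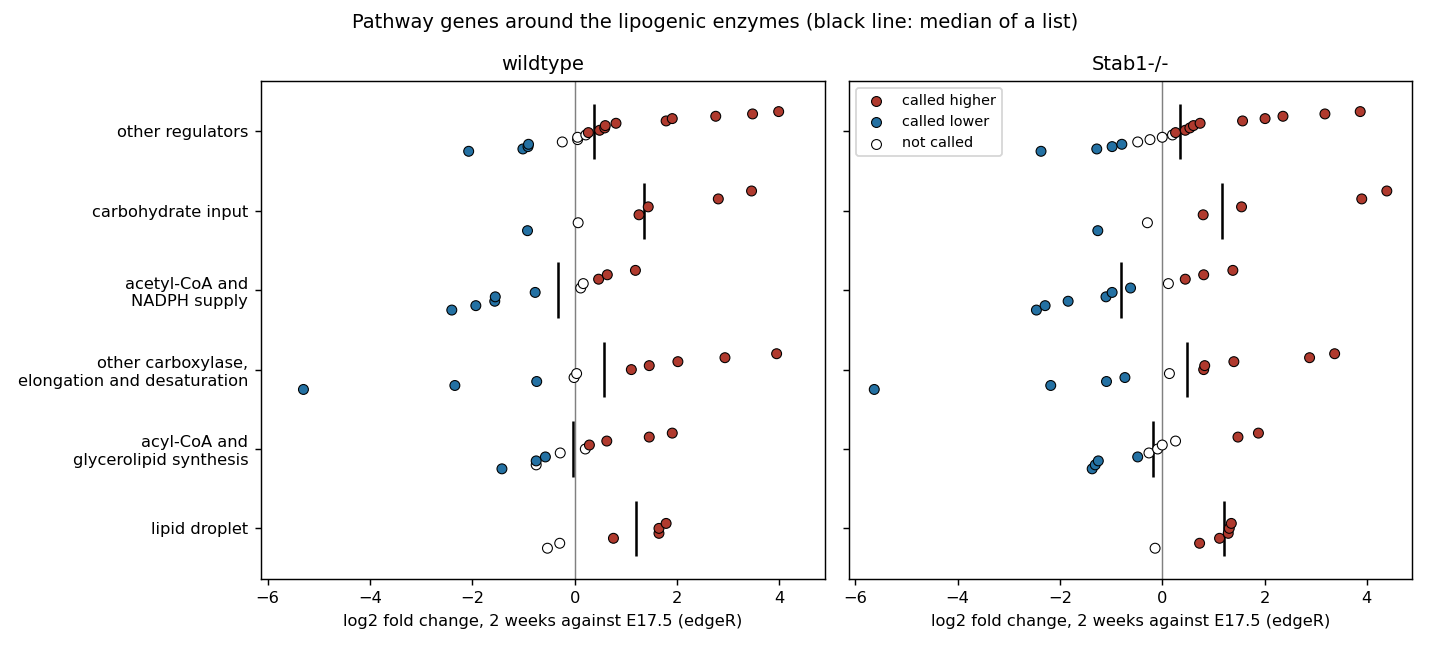
Log2 fold change from E17.5 to 2 weeks (horizontal axis, edgeR) of the 60 pathway genes tested, by list, in wildtype and Stab1-/- livers, with red points called higher, blue points called lower, open points not called and a black line at the median of a list. Carbohydrate entry and lipid droplet genes lie mostly to the right, with medians of 1.35 and 1.21 in wildtype livers, and the lowest point in each panel is Scd2.

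Between genotypes, fewer of the 10 genes were called than between the ages, as was also so over all genes tested. At 2 weeks edgeR called 0 of the 10 genes at an adjusted p under 0.05, against 2.67% of 12716 genes tested. With library totals, the calls over all genes went from 119 higher and 221 lower to 137 and 118. Only Acly had an unadjusted p under 0.05, and DESeq2 and limma also called 0. Acly was at 16.6, 18, 15.8 and 15.5 RPKM in Stab1-/- and at 19.1, 20.2, 18.6 and 31.7 RPKM in wildtype livers, so the groups did not overlap. Its log2 fold change was -0.54 (SE 0.17, edgeR adjusted p = 0.0994), and the adjusted p ranged from 0.0531 to 0.236 over the alternatives. Without wildtype replicate 4, the highest library, it was -0.30. Me1 did not overlap in RPKM either, at 9.51, 10.2, 9.53 and 9.51 RPKM in Stab1-/- against 8.82 to 8.98 RPKM in wildtype livers, but its log2 fold change after TMM scaling was 0.03 (SE 0.09, edgeR adjusted p = 0.875). These 2 of 10 genes compare with 14.9% of all genes tested whose groups did not overlap at 2 weeks.

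The remaining 2-week values lay within the spread of the replicates. Thrsp was at 14.8, 4.5, 7.49 and 17.2 RPKM in Stab1-/- and at 12.6, 5.66, 1.52 and 4.99 RPKM in wildtype livers, a log2 fold change of 0.75 (SE 0.5, edgeR adjusted p = 0.384). Pnpla3 had a log2 fold change of -0.60 (SE 0.38, adjusted p = 0.367), which rested on wildtype replicate 1 at 2.45 RPKM and was 0.05 without it. Fasn was at 6.57, 6.21, 6.03 and 6.64 RPKM in Stab1-/- livers, a narrower range than the 4.77 to 10.9 RPKM of wildtype livers, with a log2 fold change of -0.33 (SE 0.18, edgeR adjusted p = 0.292). Values for Srebf1 (-0.18, SE 0.15), Acaca (-0.19, SE 0.13), Scd1 (-0.06, SE 0.3), Elovl6 (0.24, SE 0.29) and Mlxipl (0.00, SE 0.15) were as small or smaller on the log2 scale. Across all genes, the log2 difference at 2 weeks moved with transcript GC content (Spearman rho = -0.319 over 12648 genes). With GC-content offsets the log2 fold changes were -0.24 for Fasn, -0.08 for Srebf1, 0.09 for Mlxipl, -0.46 for Acly and -0.51 for Pnpla3. They were -0.19 for Acaca, 0.03 for Scd1, 0.25 for Elovl6, 0.003 for Me1 and 0.81 for Thrsp. As in the main fit, 0 were called, so the count of calls does not show the part of GC content.

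At 2 weeks, edgeR called 0 of 60 pathway genes higher and 3 lower, against 119 and 221 of 12716 genes tested. All 3 were in the list of other carboxylase, elongation and desaturation genes, whose median was -0.49. Fads2, the delta-6 desaturase, was at 121 ± 16.8 RPKM in Stab1-/- livers against 217 ± 23.8 RPKM in wildtype livers, a log2 fold change of -0.94 (SE 0.12, edgeR adjusted p = 0.00342). Elovl5 was at 128 ± 9.78 against 211 ± 25.7 RPKM, a log2 fold change of -0.81 (SE 0.11, adjusted p = 0.0045). Fads1, the delta-5 desaturase, named to complete the count after its values were seen, was at 79.7 ± 6.98 against 125 ± 12.5 RPKM, a log2 fold change of -0.74 (SE 0.11, edgeR adjusted p = 0.00605). These enzymes make long polyunsaturated fatty acids from dietary precursors, beside the saturated and monounsaturated route of the 10 genes. At the same age, 3 of 8 stellate, 1 of 8 proliferation and 1 of 8 sinusoidal endothelial markers were also called lower (221 of 12716 over all genes). The summed hepatocyte markers were at 58776 to 74642 RPKM in Stab1-/- and 74653 to 94836 RPKM in wildtype livers at 2 weeks, ranges that almost touch. Their median log2 fold change was -0.29, with 0 of 8 called by edgeR. The part of these markers in the values of Fads2, Elovl5 and Fads1 was not tested.

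At E17.5, Pnpla3 alone was called, lower in Stab1-/- livers, against 0.366% of 13388 genes tested, whose 26 higher and 23 lower calls became 22 and 32 with library totals. It was at 2.11, 2.22 and 2.5 RPKM in Stab1-/- and at 3.62, 4.67, 3.85 and 3.74 RPKM in wildtype livers, a log2 fold change of -0.74 (SE 0.13, edgeR adjusted p = 0.0474). The groups did not overlap. The call was near the threshold, since the adjusted p rose to between 0.0674 and 0.122 when any 1 of the 7 libraries was left out. Without wildtype replicate 2, the library with the highest sum of pancreas and intestine markers, the log2 fold change was -0.66 (adjusted p = 0.122). With GC-content offsets the log2 fold change was -0.75 and the call was lost (edgeR adjusted p = 0.0638), within a range of 0.00288 to 0.374 over all alternatives.

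Scd1 was lower by a similar size at E17.5. It was at 43.1, 42.4 and 34.0 RPKM in Stab1-/- and at 63.7, 72.5, 76.8 and 54.8 RPKM in wildtype livers, without overlap. The log2 fold change was -0.69 (SE 0.14, edgeR adjusted p = 0.0943), and -0.65 (adjusted p = 0.253) without wildtype replicate 2. DESeq2 called it (adjusted p = 0.000309), as did limma on log2(RPKM + 0.1) (adjusted p = 0.0482), within a range of 0.000309 to 0.379 over the alternatives. Thrsp, at 6, 6 and 2 reads against 12, 13, 12 and 8 reads, had a log2 fold change of -1.16 (SE 0.43, edgeR adjusted p = 0.311). Acly, at 69.6, 64.4 and 54.6 RPKM against 72.3 to 87.9 RPKM, had a log2 fold change of -0.23 (SE 0.11, adjusted p = 0.425). These 4 of 10 genes without overlap compare with 12.2% of all genes tested at E17.5.

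The other 6 genes overlapped between genotypes at E17.5. Fasn was at 35.7, 22.0 and 20.4 RPKM in Stab1-/- livers and 22.8 to 32.2 RPKM in wildtype livers (log2 fold change -0.02, SE 0.18). Elovl6 was at 26.7, 29.7 and 23.6 RPKM against 23.3 to 30.2 RPKM (0.02, SE 0.12), and Srebf1 at 42.4, 37.2 and 29.7 RPKM against 39.0 to 41.7 RPKM (-0.09, SE 0.12). For Mlxipl, Acaca and Me1 the log2 fold changes were -0.22 (SE 0.16), 0.17 (SE 0.11) and -0.12 (SE 0.12). edgeR called 0 of the 60 pathway genes tested at E17.5 at an adjusted p under 0.05, against 0.366% of 13388 genes tested.

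**Figure D5:**
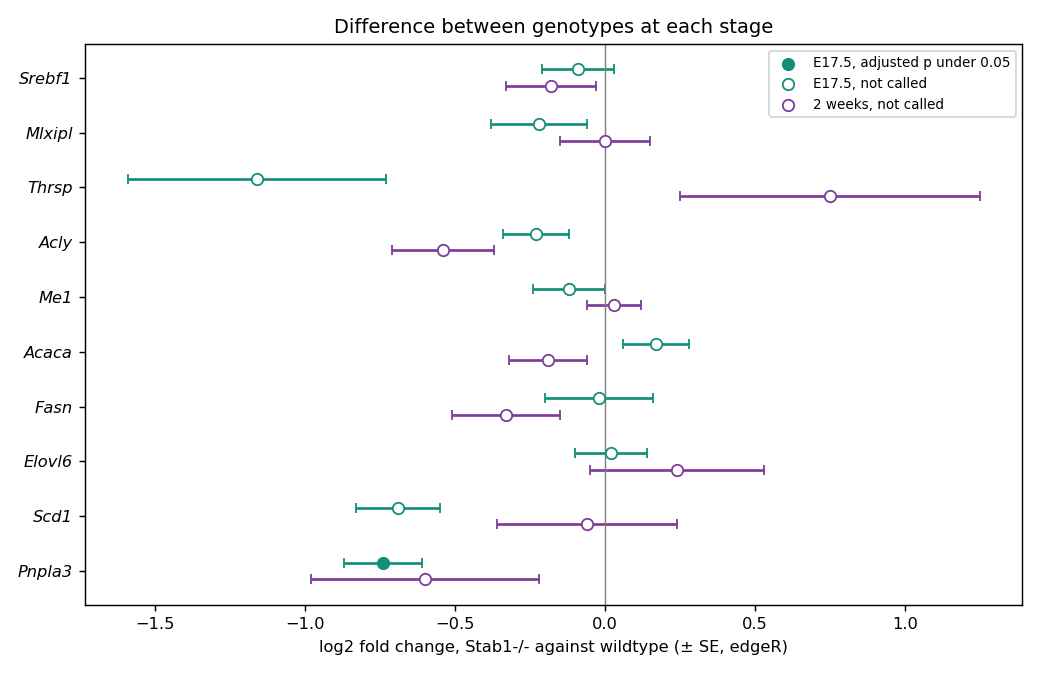
Log2 fold change of Stab1-/- against wildtype livers (horizontal axis, ± SE from edgeR) for the 10 genes at E17.5 (green) and 2 weeks (purple). The one filled point, Pnpla3 at E17.5, is called, and the widest error bars belong to Thrsp at both ages and Pnpla3 at 2 weeks.

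Whether the genotype difference itself differed between the ages was tested as the interaction of a fit to all 15 libraries. edgeR called 0 of the 10 genes, against 1.81% of 13885 genes tested (111 higher and 140 lower, or 209 and 83 with library totals), and 0 had an unadjusted p under 0.05. DESeq2 and limma also called 0, with 1 and 2 of the genes at an unadjusted p under 0.05. Thrsp, lower in Stab1-/- livers at E17.5 and higher at 2 weeks, had the largest difference, at 1.95 (SE 1.0, edgeR adjusted p = 0.254) on the log2 scale. Scd1 had 0.67 (SE 0.39, adjusted p = 0.314) and Pnpla3 0.17 (SE 0.45, adjusted p = 0.853). Of the 62 pathway genes tested, Fads1 was called, with a difference of -0.61 (SE 0.15, edgeR adjusted p = 0.0453) that lost the call under 8 of the 10 alternatives that kept every library. The genotype and age comparisons share the same libraries, so their values are not independent of each other.

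Within groups, the 10 genes varied together only in part. After the mean of each group was subtracted from log2(RPKM + 0.1), 7 of the 45 pairs had a Pearson correlation above 0.5 across the 15 libraries, 1 had one below -0.5, and the median was 0.23. Fasn varied most closely with Thrsp (r = 0.72) and Srebf1 (r = 0.65), Elovl6 with Pnpla3 (r = 0.60) and Acaca with Acly (r = 0.58). Srebf1 and Mlxipl had r = -0.53. With the age difference left in, the same pairs gave r = -0.75 for Fasn with Thrsp, -0.81 for Fasn with Srebf1 and 0.86 for Srebf1 with Mlxipl, which restates the opposite or shared change with age. Libraries share a total and a composition, so these correlations are descriptions.

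In wildtype livers at 2 weeks, replicate 1 was the highest of 4 for 5 of the 10 genes (Fasn, Elovl6, Thrsp, Pnpla3 and Mlxipl), and replicate 3 was the lowest for 6 (Fasn, Acly, Elovl6, Srebf1, Thrsp and Pnpla3). In Stab1-/- livers at E17.5, replicate 3 was the lowest of 3 for 7 genes (Fasn, Acaca, Acly, Scd1, Elovl6, Srebf1 and Thrsp). It also had the highest erythroid sum of its group, 9345 RPKM against 6724 and 7705 RPKM, whose part in these values was not tested.

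Among 13885 genes, those whose within-group pattern was most like that of Fasn included Clec16a (r = 0.91), Cog2 (0.90), Map7d1 (0.89) and Dzip1l (0.89). With the age difference left in, Cog2 (r = 0.96) and Dzip1l (0.89) also followed Fasn, while Clec16a (-0.32) and Map7d1 (-0.45) did not. For Srebf1 the nearest genes were Gmppb (r = 0.96), Atf6b (0.93), Hyou1 (0.92), Sec23b (0.92) and Nek6 (0.92). With the age difference left in, r of these 5 with Srebf1 lay between -0.54 and 0.13.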

How the data were processed

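Liver RNA-seq libraries from 15 samples were grouped by genotype and age from the sample labels. The table the authors deposited gives, per gene and library, a whole-number count of reads that mapped uniquely, a coverage value (percent of the gene's length with reads, not used in a test) and RPKM. RPKM recomputed from the deposited counts differed by at most 7.66e-12 percent. Aligner, counting program, strand setting and genome build are not given in the sources used here. Each library held 9.66 to 10.96 M (mega) reads on genes, and 3 reads were taken as the floor of a library, for counting error only. Replicate libraries differed by more than sampling noise (chi-square divided by its degrees of freedom, at least 5.41), so none was counted as a repeat. A total of 4 rows had no symbol.

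The main test was edgeR 4.0.16 under R 4.3.3 on counts (TMM, filterByExpr with minimum count 10 and total 15, quasi-likelihood test, two-sided) over all genes tested, with Benjamini-Hochberg adjustment and a threshold of 0.05. The SE is the log2 fold change divided by the square root of F. Single ratios were compared by exact permutation in Python 3.11.15 with scipy 1.17.1. Alternatives were median-of-ratios scaling, library totals, no filter, DESeq2 1.42.0, limma 3.58.1 on log2(RPKM + 0.1) or log2(RPKM + 1), the former also at a mean RPKM of at least 1, the replicate number as a block, GC-content offsets (a lowess trend on transcript GC, known for 98.7% of rows in GENCODE vM21), 1 fit to all libraries, and leaving out each library. On simulated counts, 200 genes were given a true log2 change of 2. For the 2-week comparison edgeR recovered 199 with 14 false calls among 12759 genes, and for E17.5 198 with 11 among 13580 genes. The changed genes were drawn from those with higher counts, and no smaller change was simulated. The check therefore does not show how often a change the size of the genotype differences given above would be called.

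The 10 genes, 6 pathway lists and 8 marker lists were chosen with earlier results of these data known. Named genes are the 10, Stab1, the 2 called genes with the largest rise and the 2 with the largest fall per list and comparison, Scd2, Acacb and Srebf2, and the 5 genes most correlated within groups with Fasn and with Srebf1. Hacd3, Epb42 and Adgre1 were found under older symbols. Promoter windows come from RefSeq on GRCm38.p6. Some genes that this rule names are not reported here.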

Additional observations from a re-analysis of the deposited data

Results flagged for a closer look

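A total of 39 groups of 4 libraries were examined for 1 library far from the rest, by the gap to its nearest neighbour divided by the range of the group, against Dixon's 95% critical value. Chance marks about 1 in 20 such groups, or 1.95 of 39, and 6 were marked. Acly stood apart in wildtype E17.5 replicate 3 (87.9 RPKM, nearest 73.8, statistic 0.9) and in wildtype 2-week replicate 4 (31.7 RPKM, nearest 20.2, statistic 0.875). In Stab1-/- replicate 2 at 2 weeks, Srebf1 (88.5 RPKM, nearest 76.6, statistic 0.856) and Me1 (10.2 RPKM, nearest 9.53, statistic 0.975) were both high. Pnpla3 stood apart in wildtype 2-week replicate 1 (2.45 RPKM, nearest 0.846, statistic 0.89). The Acaca to Acacb ratio stood apart in wildtype E17.5 replicate 4 (8.09, nearest 3.47, statistic 0.885).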

How the results depend on the processing

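In the age comparisons, 9 of the 10 genes were called in wildtype livers under every alternative, and 9 or 10 in Stab1-/- livers, where Acaca was added with library totals and limma. At 2 weeks and in the interaction, 0 were called by edgeR, DESeq2 or limma. At E17.5 the count of 1 became 2 with DESeq2 and with limma on log2(RPKM + 0.1), and 0 with limma at a mean RPKM of at least 1, the replicate block, GC-content offsets, both together, or all 15 libraries in 1 fit. It ranged from 0 to 1 when 1 library was left out. Without wildtype replicate 4, Scd1 was called (-0.78, edgeR adjusted p = 0.0377) and Pnpla3 was not. The cause was not tested.

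Directions changed only for values near 0 or resting on 1 library. For Mlxipl at 2 weeks the log2 fold change was 0.01 with median-of-ratios scaling, no filter, DESeq2 and the replicate block, 0.02 with all libraries, 0.09 with library totals and GC-content offsets, and 0.1 with limma and with offsets plus block. For Scd1 at 2 weeks it was 0.03 with library totals and GC-content offsets, and 0.01 with limma and offsets plus block. For Elovl6 at E17.5 it was -0.04 with library totals and limma, -0.07 with the replicate block and -0.09 with offsets plus block. For Acaca in wildtype livers between the ages it was -0.24 with library totals and limma, and -0.21 with limma on log2(RPKM + 1). Leaving out 1 library gave -0.12 to 0.12 for Mlxipl, -0.78 to 0.05 for Pnpla3 and -0.3 to 0.17 for Scd1 at 2 weeks. At E17.5 it gave -0.1 to 0.1 for Elovl6, -0.29 to 0.13 for Fasn and -0.19 to 0.04 for Srebf1, and in the interaction -0.02 to 0.82 for Pnpla3. The log2 ratio differences between the ages in wildtype livers stayed at 2.49 to 2.95 for Scd1 to Scd2, 2.2 to 2.7 for Acaca to Acacb and 2.14 to 2.41 for Srebf1 to Srebf2, where 3 against 4 libraries cannot reach 0.05. The genotype difference of Srebf1 to Srebf2 at 2 weeks was -0.04 to 0.23. Thrsp had no E17.5 value without wildtype replicate 1, 2 or 3, since it did not pass the filter.

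The labels do not say that a replicate number marks a shared litter or day. The correlation of deviations between same-numbered libraries was 0.022 to 0.202 at 2 weeks, above 0.1 in 3 of 4 pairs, and -0.181 to 0.0 at E17.5, and not every library correlated best with its own number, so the numbers were not taken as a pairing. With the replicate block, calls over all genes went from 340 to 1181 at 2 weeks, from 49 to 23 at E17.5 and from 251 to 591 in the interaction. Counts over all genes were 861, 230 and 1028 with DESeq2, and 709, 29 and 412 with offsets plus block, for the same comparisons. At 2 weeks they were 703 with all libraries, and 219 and 195 with limma on log2(RPKM + 0.1) without and with the level filter. In the interaction, limma on log2(RPKM + 1) gave 440. Depth limits Thrsp at E17.5 (2 to 13 reads per library), and Acacb and Elovl6 at 2 weeks (13 to 40 and 19 to 47 reads).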
